A study of Rattus norvegicus with 12 samples.

Results

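The genes described here encode the proteins of the mitochondrial ribosome. They were chosen by name alone, as the genes whose symbol begins with Mrpl (large subunit) or Mrps (small subunit) followed by a digit, which gave 78 genes among the 18344 rows of the expression table. The capital M of the symbol was not required, because mrpl9, mrpl11 and mrpl24 stand in lower case there, and no symbol occurred more than once. Of the 78 genes, 76 reached at least 1 FPKM (fragments per length of transcript and number of mapped fragments) in 3 or more of the 12 libraries and were tested. Mrpl36 and Mrps21l stayed below that level and are described by their values only.

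Poly-A RNA had been sequenced in paired-end libraries from rat cells that had gone through oxygen-glucose deprivation with reperfusion (OGD/R), a culture model of ischaemia that all 4 groups had received. The groups were OGD/R + CIRBP and its counterpart OGD/R + NC, and OGD/R + si-CIRBP and its counterpart OGD/R + si-NC, with 3 libraries each. The labels call these biological replicates without saying that they came from separate cultures, so the p-values measure the spread between the libraries only. The labels do not spell out NC or how CIRBP was given, the deposited columns of CIRBP and NC carry an unexplained prefix ad that those of si-CIRBP and si-NC lack, and libraries of untreated cells were not analysed here. The titles name H9C2 cells, a line from embryonic rat heart, while another label gives rat astrocytes as the line, and whether the CIRBP and si-CIRBP arms shared cells and procedure is not given there.

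Mitochondria keep ribosomes of their own, which translate the few proteins still encoded by mitochondrial DNA, all of them parts of the respiratory chain or the ATP synthase. The ribosomal RNAs come from mitochondrial DNA, but every ribosomal protein is made from a nuclear gene in the cytosol and imported, so a mitochondrial ribosome is assembled from 2 genomes. Heart muscle depends on this supply because it draws most of its ATP from respiration. Some of the proteins have counterparts in bacteria and others exist only in mitochondria. The symbols do not always name the subunit: Mrps30 and Mrps18a sit in the large subunit, and Mrps36 is now assigned to the 2-oxoglutarate dehydrogenase complex.

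Cirbp, the cold-inducible RNA-binding protein aimed at, averaged 35.8 ± 1.27 FPKM in CIRBP and 19.7 ± 0.557 FPKM in NC libraries (mean ± SD, n = 3, as everywhere below; log2 fold change 0.83, SE 0.0652, limma adjusted p = 2.47e-06), but 27.6 ± 1.04 FPKM in the libraries labelled si-CIRBP and 26.7 ± 2.43 FPKM in si-NC (log2 fold change 0.05, SE 0.0652, limma adjusted p = 0.609). The mRNA was thus not lower in the libraries labelled si-CIRBP, which are named so throughout, and no direction given for them rests on a measured loss of Cirbp. Summed over all genes, the libraries held 457775 to 502889 FPKM, and their depth relative to the first NC library was 0.842 to 1.03. Within a group, the median SD of a tested gene on the log2 scale was 0.0570 in CIRBP and 0.0539 in NC, but 0.147 in si-CIRBP and 0.133 in si-NC. Of 10 muscle markers, 9 were in the table, and their summed level was 6.43 to 7.92 FPKM in CIRBP and 9.59 to 11.2 FPKM in NC, against 496 to 827 FPKM in si-CIRBP and 89.5 to 1081 FPKM in si-NC. The means of 7 of the 9 were under 1 FPKM in CIRBP, of 6 in NC, of 2 in si-CIRBP and of 3 in si-NC. Acta2 alone averaged 583 ± 456 FPKM in si-NC and 1.41 ± 0.915 FPKM in NC. Myod1 averaged 12.9 ± 10.2 FPKM in si-NC and 0.0414 ± 0.0410 FPKM in NC, and Des 2.24 ± 1.81 and 0.223 ± 0.0284 FPKM. The 6 of 7 astrocyte markers in the table summed to 267 to 283 FPKM in CIRBP, 180 to 194 in NC, 182 to 196 in si-CIRBP and 132 to 184 in si-NC. The means of 3 of the 6 were under 1 FPKM in CIRBP and in NC, and of 2 in si-CIRBP and in si-NC. Gfap averaged 6.88 ± 0.00968 FPKM in CIRBP and 4.50 ± 0.252 FPKM in NC. In RNA from whole cultures, fewer cells of a kind and less RNA per cell cannot be told apart.

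Over the 12 libraries the mean level of the 78 genes ranged between 0.126 and 143.5 FPKM, with a median of 25.8 FPKM. Most stood close together, 54 of them between 10 and 50 FPKM, with 12 above and 12 below that range. Mrpl33, the counterpart of bacterial L33 in the large subunit, had the highest mean, at 122, 115 and 121 FPKM in CIRBP, 154, 154 and 154 FPKM in NC, 150, 174 and 178 FPKM in si-CIRBP and 150, 94.7 and 155 FPKM in si-NC. It was followed by Mrps6, at 78.9 to 121 FPKM over the 12 libraries, Mrpl17 at 72.7 to 96.8, Mrpl43 at 51.9 to 79.3 and Mrpl28 at 59.1 to 69.2 FPKM. Mrpl33 was above Mrps6 in all 12 libraries and Mrpl17 above Mrpl43 in all 12, although the ranges over the libraries overlap, whereas Mrps6 was above Mrpl17 in 6 and Mrpl43 above Mrpl28 in 5, so the order within these last pairs is not fixed. At the low end, Mrpl1, which forms a mobile stalk of the large subunit, stood at 0.958 to 4.42 FPKM. Mrpl36 was at or below 0.710 FPKM in 11 libraries and at 7.11 FPKM in si-CIRBP library 3, and Mrps21l did not exceed 0.464 FPKM and was listed at 0 in 6 libraries.

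The summed level of the 78 genes was lowest in CIRBP, at 2167, 2112 and 2180 FPKM, against 2405, 2425 and 2536 FPKM in NC. Without further scaling, all 3 CIRBP sums lay below all 3 NC sums, with means of 2153 ± 36.3 and 2455 ± 70.6 FPKM (SD, n = 3 each). As a share of all FPKM of a library these were 0.444% ± 0.00571 in CIRBP and 0.533% ± 0.00980 in NC. Dividing each library by a factor that gives all libraries 1 median (0.957 to 0.968 in CIRBP, 1.06 to 1.08 in NC) would narrow the gap in the sums. Whether sums scaled in this way stay apart was not tested. In the other arm the sums overlapped, at 2302, 2336 and 2412 FPKM in si-CIRBP and 2417, 2294 and 2420 FPKM in si-NC, which is 0.473% ± 0.0136 and 0.495% ± 0.0237 of the library. The large-subunit genes summed to 2.17 times the small-subunit genes in both CIRBP and NC, with overlapping ranges of 2.14 to 2.18 and 2.14 to 2.19, and to 2.2 times in si-CIRBP and 2.23 times in si-NC, with ranges of 2.15 to 2.26 and 2.18 to 2.26.

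Promoter sequences (250 bases before and 50 after the gene's start, RefSeq, build GRCr8) were at hand with a single start for 60 of the 78 genes. Genes of the mitochondrial ribosome are known targets of NRF1, of the ETS factor GABP and of YY1, and the promoters were searched on both strands for GCGCATG (NRF1), CCGGAAG (ETS, the family of GABP) and ATGGCGG (YY1), which shared no base in any of these promoters. At least 1 of the 3 was present in 33 of 60 promoters (55%), against 32.3% of the 8477 promoters of tested genes and 16.8% of all 24206 promoters of that length. The YY1 letters were in 15 of 60 (25%) against 10.9% of tested genes and 5.46% of all. The ETS letters were in 19 (31.7%, against 18.9% and 9.49%) and those of NRF1 in 6 (10%, against 7.42% and 4.03%). Longer forms, of 11 letters for YY1 and 10 for NRF1, were searched first. They were in 7 (11.7%, against 2.24% and 0.884%) for YY1 and in 8 (13.3%, against 10.9% and 4.95%) for NRF1. The median content of G and C was 55.7% in these promoters, 61.3% over tested genes and 52.7% over all. A match describes the letters and does not show that a factor binds.

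All 15 YY1 matches read along the gene and lie 3 to 47 bases after its start. They are shown for 2 of the genes described below that fell in CIRBP, Mrps18a and Mrps30, and for 2 that rose, Mrps23 and Mrpl58. The motif holds the letters of a start codon, and whether the matches lie on one was not tested. The coordinates are those of GRCr8, the sequence reads along the gene, and capitals mark the match.
Mrps18a, chr9:22367351-22367380, minus strand: aagATGGCGGccctcagggctcttgtgtcc
Mrps30, chr2:52195863-52195892, minus strand: aggacaaagATGGCGGctgccaggtattgg
Mrps23, chr10:73496255-73496284, plus strand: taagtgcccATGGCGGggagccggctggag
Mrpl58, chr10:101145342-101145371, plus strand: tgaacATGGCGGccgcctggggcctacgct
The 100 bases upstream of 3 genes named below are shown for the place of their matches. In Mrpl57 the capitals mark 1 ETS match. In Mrps18b they mark a pair of overlapping NRF1 matches on opposite strands and, at the end, the first 3 bases of a reverse ETS match that runs across the start. In Mrps18a they mark 1 ETS match, and its YY1 match above follows the start.
Mrpl57, chr15:36086357-36086456, plus strand: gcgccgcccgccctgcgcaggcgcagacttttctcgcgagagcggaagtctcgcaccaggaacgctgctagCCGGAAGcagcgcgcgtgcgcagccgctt
Mrps18b, chr20:2842906-2843005, plus strand: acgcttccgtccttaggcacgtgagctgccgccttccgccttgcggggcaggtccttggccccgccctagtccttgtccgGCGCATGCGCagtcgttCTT
Mrps18a, chr9:22367381-22367480, minus strand: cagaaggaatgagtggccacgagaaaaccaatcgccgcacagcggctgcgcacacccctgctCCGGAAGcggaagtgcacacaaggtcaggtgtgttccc
Mrps11 and Mrpl46 are neighbours that point away from each other, with 233 bases between their starts, and none of the 3 motifs occurs in those bases.
Mrps11, chr1:142117031-142117263, plus strand: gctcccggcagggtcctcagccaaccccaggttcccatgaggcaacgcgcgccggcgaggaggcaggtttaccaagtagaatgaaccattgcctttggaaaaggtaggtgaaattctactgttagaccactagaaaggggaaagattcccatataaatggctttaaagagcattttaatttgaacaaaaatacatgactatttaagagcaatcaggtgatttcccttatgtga
In all, 17 of the 60 genes (28.3%) had the start of another gene on the other strand within 1000 bases, against 15.6% of tested genes and 9.63% of all, and the Mrps11 and Mrpl46 pair was the only one within the family.

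In the deposited FPKM, without further scaling, genes of the mitochondrial ribosome were mostly lower in CIRBP than in NC. Of the 76 tested, 38 fell, 10 rose and 28 did not pass the test (limma on log2(FPKM + 1), adjusted p under 0.05). The family was thus lower in 50% and higher in 13.2% of its tested genes, while over all 14257 genes tested 34.2% were called lower and 19.7% higher, 54% in all. The log2 fold changes of FPKM + 1 lay between −0.98 and 0.48 with a median of −0.24, against −0.08 over all genes. Decreases were the larger changes in this unscaled fit. Of the 76 genes, 15 were called at −0.5 or less, a share close to the 19.8% of all genes. None was called at 0.5 or more, beside 10.2% of all genes. In 48 genes all 3 CIRBP values lay below all 3 NC values and in 13 above, while this held for 45% and 29.7% of all genes.

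The size of the fall and the excess of lower calls depended on how the libraries were scaled. Scaling all libraries to 1 median put the median of all genes at 0.03 and scaling by median ratios at 0.01, both above its unscaled value of −0.08. Relative to all genes, the median of the family was −0.15 unscaled, −0.12 with 1 median and −0.12 with median ratios. Of the 76 genes, 14 were then called higher and 20 lower with 1 median, beside 4089 higher and 3758 lower of all 14257 genes. With median ratios 14 were higher and 23 lower, beside 3882 and 3933. The share called lower was thus close to that of all genes under both scalings, and the share called higher was below it. Scaled counts of CIRBP against NC given below are to be read beside these counts of all 14257 genes. The 8 largest decreases and the 8 largest increases described below kept their call under both.

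**Figure D1:**
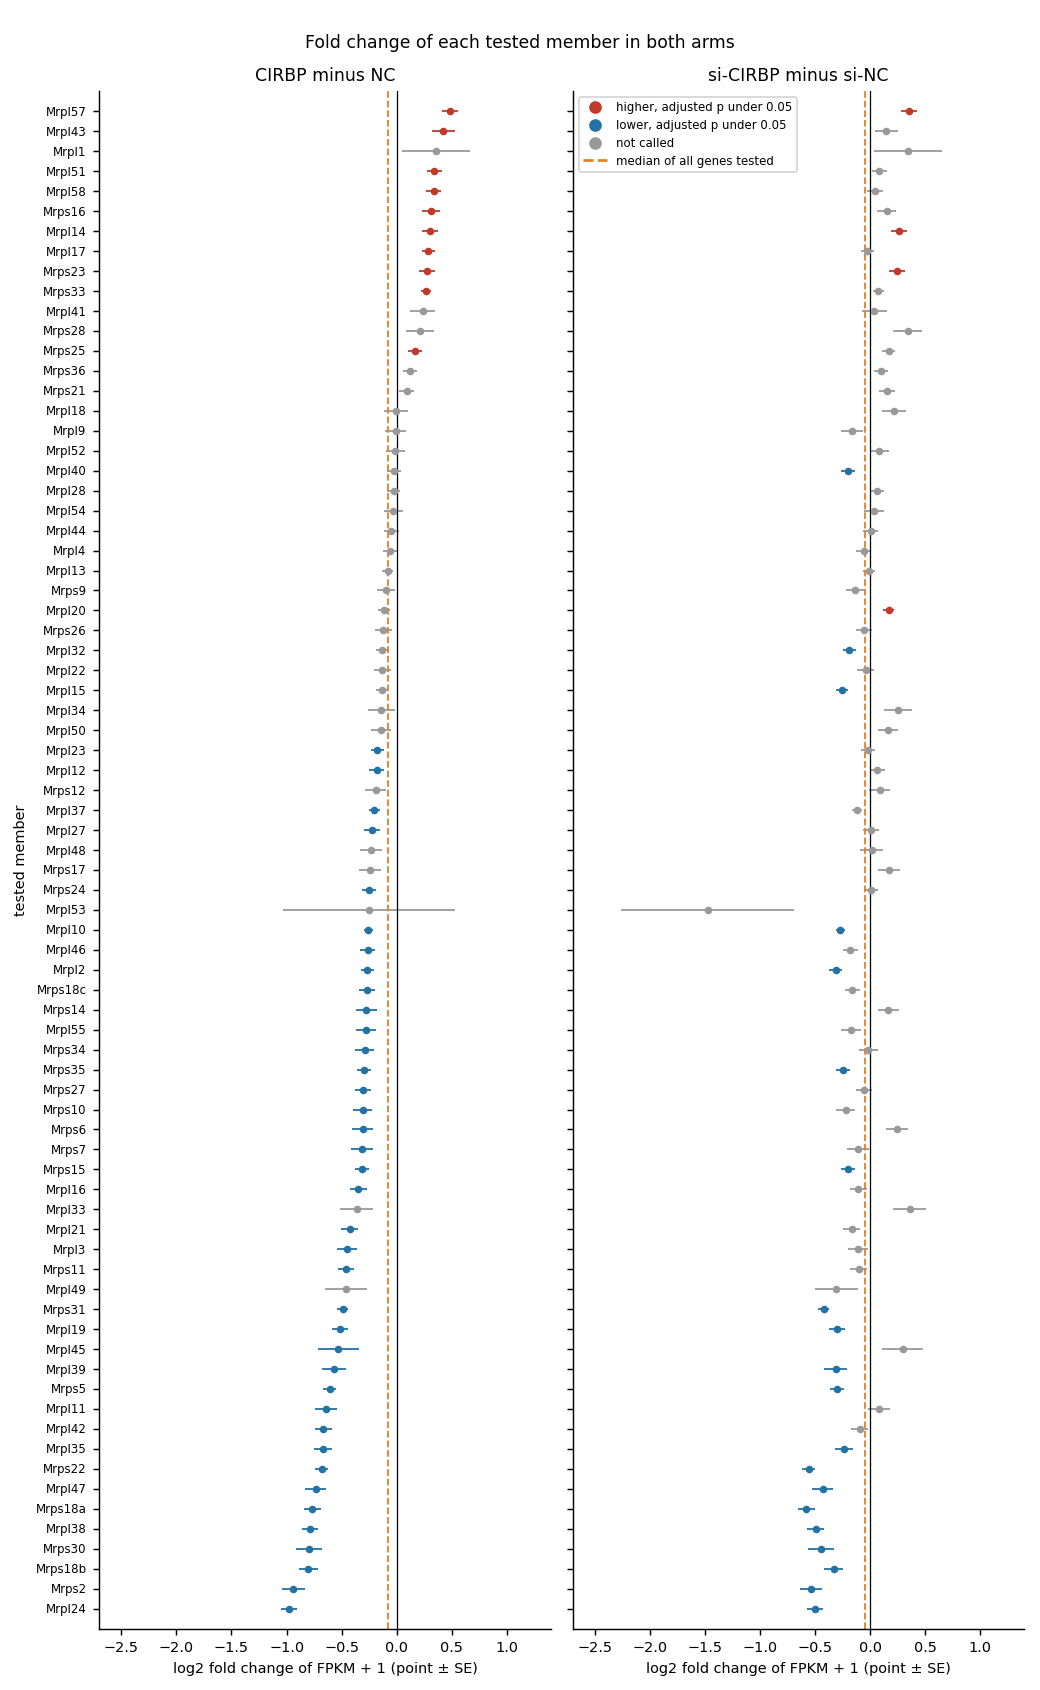
Log2 fold change of FPKM + 1 (points, with SE) of the 76 tested genes in CIRBP against NC and in si-CIRBP against si-NC, ordered by the change in CIRBP against NC, with the median of all genes dashed. Blue points (38 and 20 genes) are lower and red points (10 and 4 genes) higher at an adjusted p under 0.05, and grey points were not called. After scaling to 1 median the split was 14 higher and 20 lower in CIRBP, and it turned to 20 higher and 12 lower in si-CIRBP.

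Among the small-subunit proteins, 16 of 26 tested genes fell and 4 rose, with a median of −0.28, beside 34.2% of all genes lower and 19.7% higher. Scaled to 1 median, 7 fell and 6 rose, and by median ratios 9 fell and 6 rose. Mrps2, counterpart of a bacterial protein on the outer face of the small subunit, stood at 5.68, 5.83 and 6.04 FPKM in CIRBP, against 12.5, 12.3 and 11.6 FPKM in NC. The CIRBP libraries were grouped tightly at a mean of 48.1% of the NC mean, far below the lowest NC library, with a log2 fold change of −0.94 (SE 0.104, limma adjusted p = 2.59e-05). Mrps22, a protein found only in mitochondria mutation of which causes a severe human respiratory chain disease, stood at 25.6, 24.0 and 26.3 FPKM in CIRBP, against 40.0, 39.9 and 43.8 FPKM in NC. No CIRBP library reached the NC range, and the change was −0.68 (SE 0.059, limma adjusted p = 4.86e-06). Mrps5 was at 14.9, 14.6 and 15.6 FPKM in CIRBP and at 23.1, 23.5 and 23.6 FPKM in NC, with no overlap (log2 fold change −0.61, SE 0.0605, limma adjusted p = 1.31e-05). Mrps31 averaged 12.0 ± 0.394 FPKM in CIRBP and 17.2 ± 0.217 FPKM in NC (log2 fold change −0.49, SE 0.049, limma adjusted p = 1.34e-05), again without overlap.

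The 3 paralogues of bacterial S18 sit at different places of the ribosome and all fell. Mrps18b, a small-subunit protein, stood at 7.76, 8.13 and 8.02 FPKM in CIRBP, against 14.7, 14.3 and 15.0 FPKM in NC. Mrps18a, placed in the large subunit, stood at 29.3, 27.1 and 27.6 FPKM in CIRBP, against 45.9, 46.9 and 52.5 FPKM in NC. Mrps18c, which takes the place of bacterial S18 itself, stood at 20.8, 20.8 and 20.9 FPKM in CIRBP, against 25.8, 24.8 and 25.4 FPKM in NC. The CIRBP and NC values did not overlap in any of them, and Mrps18b fell by 0.80 (SE 0.0846, limma adjusted p = 1.9e-05), Mrps18a by 0.77 (SE 0.0768, limma adjusted p = 1.35e-05) and Mrps18c by 0.27 (SE 0.0684, limma adjusted p = 0.00646) on the log2 scale. The Mrps18c call was lost when the libraries were scaled to 1 median or by median ratios (highest adjusted p = 0.133 with limma over the alternatives), and no test compared the paralogues with each other.

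Of the large-subunit proteins, 22 of 49 tested genes fell and 6 rose, with a median of −0.18, and the same shares of all genes apply. Scaled to 1 median, 13 fell and 7 rose with a median of −0.03, and by median ratios 14 fell and 7 rose with a median of −0.06. Mrpl24, whose bacterial counterpart starts the assembly of the large subunit and lines the exit of the peptide tunnel, showed the largest fall of the family. It stood at 10.7, 10.8 and 11.1 FPKM in CIRBP, against 21.8, 22.4 and 23.1 FPKM in NC, which puts the CIRBP mean at 48.6% of the NC mean (log2 fold change −0.98, SE 0.0733, limma adjusted p = 1.89e-06). Mrps30, a mitochondria-specific protein of this subunit that was first described in chicken as a protein able to promote cell death, stood at 18.4, 18.1 and 19.2 FPKM in CIRBP, against 32.9, 32.5 and 33.7 FPKM in NC. The highest CIRBP library of Mrps30 was far below the lowest NC library, with a change of −0.80 (SE 0.117, limma adjusted p = 0.000194). Mrpl38, another mitochondria-specific protein, stood at 33.5, 31.2 and 33.5 FPKM in CIRBP, against 55.8, 56.9 and 59.2 FPKM in NC, without overlap (log2 fold change −0.79, SE 0.0751, limma adjusted p = 9.48e-06). Mrpl47, one of the less abundant members and the counterpart of bacterial L29 at the tunnel exit, averaged 4.32 ± 0.264 FPKM in CIRBP and 7.85 ± 0.199 FPKM in NC (log2 fold change −0.74, SE 0.0946, limma adjusted p = 7.8e-05).

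The proteins that meet the translation factors on the ribosome are those of the stalk and its base. Mrpl11, at the stalk base, averaged 19.4 ± 1.54 FPKM in CIRBP and 30.8 ± 1.73 FPKM in NC and fell (log2 fold change −0.64, SE 0.103, limma adjusted p = 0.000377). Mrpl10, which carries the stalk, averaged 27.4 ± 0.792 FPKM in CIRBP and 33.0 ± 0.512 FPKM in NC (log2 fold change −0.26, SE 0.043, limma adjusted p = 0.000484). Mrpl12, the flexible stalk protein, which has also been reported to bind the mitochondrial RNA polymerase, averaged 54.1 ± 0.674 FPKM in CIRBP and 61.6 ± 3.3 FPKM in NC (log2 fold change −0.18, SE 0.0681, limma adjusted p = 0.0415), a call lost in 11 of the alternatives, both scalings among them. All 3 were thus lower, Mrpl12 by little.

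Fewer genes rose, and by less. Mrpl57, a small mitochondria-specific protein, stood at 8.54, 9.0 and 8.57 FPKM in CIRBP, against 5.65, 6.07 and 6.13 FPKM in NC, and was the largest increase (log2 fold change 0.48, SE 0.0731, limma adjusted p = 0.000247). The lowest CIRBP library of Mrpl57 exceeded the highest NC library. Mrpl43 stood at 75.2, 74.1 and 70.8 FPKM in CIRBP, against 51.9, 54.4 and 57.3 FPKM in NC, also without overlap (log2 fold change 0.42, SE 0.104, limma adjusted p = 0.0054). Mrpl58, a peptidyl-tRNA hydrolase built into the large subunit that frees stalled ribosomes, stood at 59.4, 60.1 and 57.7 FPKM in CIRBP, against 44.3, 47.2 and 48.4 FPKM in NC. All 3 CIRBP values of Mrpl58 were higher, with a change of 0.33 (SE 0.0721, limma adjusted p = 0.00249). Mrpl51 averaged 19.4 ± 0.151 FPKM in CIRBP and 15.1 ± 0.824 FPKM in NC (log2 fold change 0.34, SE 0.0656, limma adjusted p = 0.00116), and Mrpl14, the docking site of the assembly factor Malsu1, averaged 21.3 ± 1.28 FPKM in CIRBP and 17.1 ± 1.11 FPKM in NC (log2 fold change 0.30, SE 0.0743, limma adjusted p = 0.00524). Mrpl17, among the most abundant members, averaged 92.1 ± 1.17 FPKM in CIRBP and 75.3 ± 3.08 FPKM in NC (log2 fold change 0.29, SE 0.0569, limma adjusted p = 0.00145). In the small subunit Mrps16 rose by 0.31 (SE 0.0827, limma adjusted p = 0.00855), Mrps23 by 0.27 (SE 0.074, limma adjusted p = 0.00928) and Mrps33 by 0.26 (SE 0.0467, limma adjusted p = 0.000709) on the log2 scale. Mrps36, the protein of the dehydrogenase complex, averaged 12.5 ± 0.709 FPKM in CIRBP and 11.4 ± 0.289 FPKM in NC and was not called (log2 fold change 0.12, SE 0.0633, limma adjusted p = 0.123), although it was called higher with 1 median (log2 fold change 0.26, limma adjusted p = 0.00431) and by median ratios (0.24, 0.00863). Mrpl41, which has been reported to act on p53 and in cell death outside the ribosome, averaged 30.5 ± 1.73 FPKM in CIRBP and 25.7 ± 0.603 FPKM in NC and did not pass the test either (log2 fold change 0.24, SE 0.114, limma adjusted p = 0.104), although its CIRBP values all exceeded its NC values and it was called higher with 1 median (log2 fold change 0.38, limma adjusted p = 0.0226) and by median ratios (0.36, 0.0337).

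Apart from Mrps11 and Mrpl46, given further on, the remaining 22 genes that fell had log2 fold changes between −0.67 and −0.18. Mrpl35 and Mrpl42 lay at the far end of these and Mrpl23 at the near end. Of the remaining increases Mrps25 was the smallest, at 0.17 (SE 0.0606, limma adjusted p = 0.0387). The 28 genes that did not pass the test spanned −0.46 to 0.35. Mrpl49, at 4.90, 5.62 and 6.03 FPKM in CIRBP and 8.27, 7.05 and 8.60 FPKM in NC, lay lowest among them (log2 fold change −0.46, SE 0.192, limma adjusted p = 0.0651), followed by Mrpl33 (log2 fold change −0.36, SE 0.152, limma adjusted p = 0.0652), and in both the CIRBP and NC values were separate while si-NC library 2 lay far from the other si-NC libraries, which share the estimate of the spread. Means were almost equal in Mrpl28 with 62.0 ± 2.5 FPKM in CIRBP and 63.2 ± 1.6 FPKM in NC, Mrpl52 with 27.4 ± 0.766 FPKM in CIRBP and 27.6 ± 0.73 FPKM in NC and Mrpl18 with 27.5 ± 2.33 FPKM in CIRBP and 27.6 ± 1.49 FPKM in NC.

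**Figure D2:**
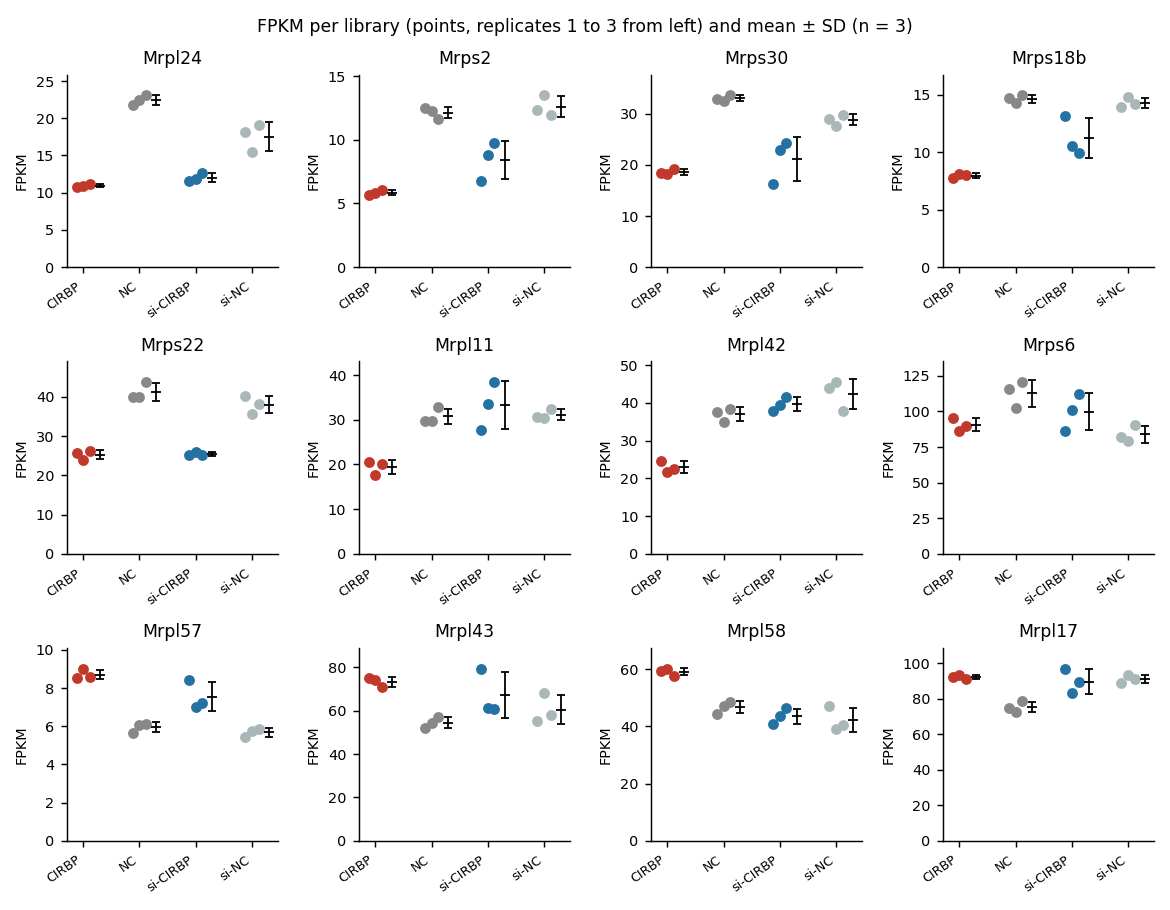
FPKM of selected genes in each library (points) with the mean and SD of each group of 3. For Mrpl24 the CIRBP libraries sit between 10.7 and 11.1 FPKM, all below the NC libraries at 21.8 to 23.1 FPKM, while for Mrpl57 the CIRBP libraries sit between 8.54 and 9.0 FPKM, all above the NC libraries at 5.65 to 6.13 FPKM.

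Genes fell and rose in each structural class. In the large subunit 14 of 28 genes with a bacterial counterpart and 8 of 21 mitochondria-specific genes fell, while 2 and 4 rose. In the small subunit 10 of 16 and 6 of 10 fell, while 1 and 3 rose, beside 34.2% lower and 19.7% higher over all genes. Scaling reduced the decreases in every class. With 1 median the large-subunit classes had 8 lower and 2 higher, and 5 lower and 5 higher, and the small-subunit classes 3 lower and 3 higher, and 4 lower and 3 higher. By median ratios these were 9 and 2, 5 and 5, 4 and 3, and 5 and 3. Across the 76 genes the fold change was only weakly related to the level of the gene (Pearson r = 0.0818, Spearman rho = 0.155, a description across genes of the same libraries). Of the genes with a promoter sequence, the YY1 letters were in 7 of 29 that fell, in 2 of 8 that rose and in 6 of 22 that were not called. The ETS letters were in 9, 2 and 7 of these and the NRF1 letters in 1, 2 and 3. The longer YY1 form was in 6, 0 and 1 of these and the longer NRF1 form in 2, 2 and 4, so the split by call differed with the form, and no test was made of these shares. Mrps11 and Mrpl46, which share the 233 bases shown above, both fell, at −0.46 (limma adjusted p = 0.000404) and −0.27 (limma adjusted p = 0.00675), the call of Mrpl46 being lost under both scalings.

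In the libraries labelled si-CIRBP the family was close to the background of its comparison with si-NC. Of the 76 tested genes 20 fell, 4 rose and 52 did not pass the test, against 20.5% of all genes called lower and 9.08% called higher, 29.6% in all. The median log2 fold change was −0.05, against −0.04 over all genes. All 3 si-CIRBP values lay below all 3 si-NC values in 22 genes and above in 6, as for 24.3% and 11.7% of all genes. The split turned with the scaling, with 20 higher and 12 lower after scaling to 1 median and 10 higher and 13 lower by median ratios, while all genes split into 2420 and 1903, or 1962 and 2293. The share of summed FPKM of the 13 mitochondrially encoded genes also varied within these groups, at 5.44% to 8.06% in si-CIRBP and 6.09% to 9.56% in si-NC, and its part in the result was not tested.

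Of the 8 largest decreases here, 7 were also among the 8 largest in CIRBP, and Mrps31 was the other. Mrps18a stood at 35.9, 29.7 and 33.0 FPKM in si-CIRBP, against 50.3, 51.6 and 46.6 FPKM in si-NC, a change of −0.58 (SE 0.0768, limma adjusted p = 0.000406). Mrps22 stood at 25.1, 26.0 and 25.3 FPKM in si-CIRBP, against 40.2, 35.7 and 38.1 FPKM in si-NC (log2 fold change −0.56, SE 0.059, limma adjusted p = 0.000105). In both genes the highest si-CIRBP library lay below the lowest si-NC library. Mrpl24 stood at 11.5, 11.9 and 12.7 FPKM in si-CIRBP, against 18.2, 15.4 and 19.1 FPKM in si-NC, without overlap (log2 fold change −0.50, SE 0.0733, limma adjusted p = 0.000698). Mrps2 stood at 6.79, 8.82 and 9.72 FPKM in si-CIRBP, against 12.3, 13.5 and 12.0 FPKM in si-NC. Its groups did not overlap, although si-CIRBP was spread widely (log2 fold change −0.54, SE 0.104, limma adjusted p = 0.00333). Mrpl38 averaged 34.3 ± 3.01 FPKM in si-CIRBP and 48.8 ± 4.41 FPKM in si-NC (log2 fold change −0.50, SE 0.0751, limma adjusted p = 0.000863), and Mrps31, which also belongs to the small subunit, averaged 11.2 ± 0.431 FPKM in si-CIRBP and 15.4 ± 0.251 FPKM in si-NC (log2 fold change −0.42, SE 0.049, limma adjusted p = 0.000182). Mrps30 averaged 21.2 ± 4.37 FPKM in si-CIRBP and 28.8 ± 1.08 FPKM in si-NC (log2 fold change −0.45, SE 0.117, limma adjusted p = 0.0158), with si-CIRBP library 1 lowest at 16.2 FPKM and a call that was lost without si-NC library 3. Mrpl47 averaged 4.25 ± 0.64 FPKM in si-CIRBP and 6.07 ± 0.545 FPKM in si-NC (log2 fold change −0.43, SE 0.0946, limma adjusted p = 0.0065).

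The 4 increases were small. Mrpl57 stood at 8.41, 7.0 and 7.2 FPKM in si-CIRBP, against 5.43, 5.74 and 5.84 FPKM in si-NC, without overlap (log2 fold change 0.35, SE 0.0731, limma adjusted p = 0.00497). Mrpl14 averaged 23.7 ± 2 FPKM in si-CIRBP and 19.6 ± 0.864 FPKM in si-NC (log2 fold change 0.26, SE 0.0743, limma adjusted p = 0.0237) and Mrps23 averaged 27.7 ± 3.05 FPKM in si-CIRBP and 23.1 ± 0.359 FPKM in si-NC (log2 fold change 0.24, SE 0.074, limma adjusted p = 0.0305). Mrpl20, counterpart of a bacterial protein needed early in assembly, averaged 64.0 ± 1.7 FPKM in si-CIRBP and 57.0 ± 3.45 FPKM in si-NC (log2 fold change 0.17, SE 0.0533, limma adjusted p = 0.0381). The calls of Mrpl20, Mrpl14 and Mrps23 were lost in 11, 6 and 4 of the alternatives. In a fit of the 6 libraries of this comparison alone, 5 genes were called, all lower: Mrps18a, Mrps22, Mrpl24, Mrpl38 and Mrps31.

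Calls in the arms overlapped. There were 17 genes lower in both arms, of 38 lower in CIRBP and 20 in si-CIRBP, 3 higher in both (Mrpl14, Mrpl57 and Mrps23), and none with opposite calls, while 24 were called in neither. Among all genes 2543 (17.8%, beside 22.4% of the 76) were lower in both and 926 (6.5%, beside 3.95%) higher in both. Of all genes 42 and 34 had opposite calls, and 41.3% were called in neither, beside 31.6% of the 76. A further 21 genes were lower (27.6%, beside 16.2% of all genes) and 7 higher (9.21%, beside 12.9%) in CIRBP alone. In si-CIRBP alone 3 were lower (Mrpl15, Mrpl32 and Mrpl40, 3.95%, beside 2.38% of all genes) and 1 higher (Mrpl20, 1.32%, beside 2.34%). A call in 1 arm alone does not show that the arms differed in these genes. These shares are unscaled. Across the 76 genes, the fold changes of the arms, which have separate controls, had a Pearson r of 0.594 and a Spearman rho of 0.648, and across all 14257 genes 0.668 and 0.674. These describe genes of the same libraries, which are not independent replicates.

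**Figure D3:**
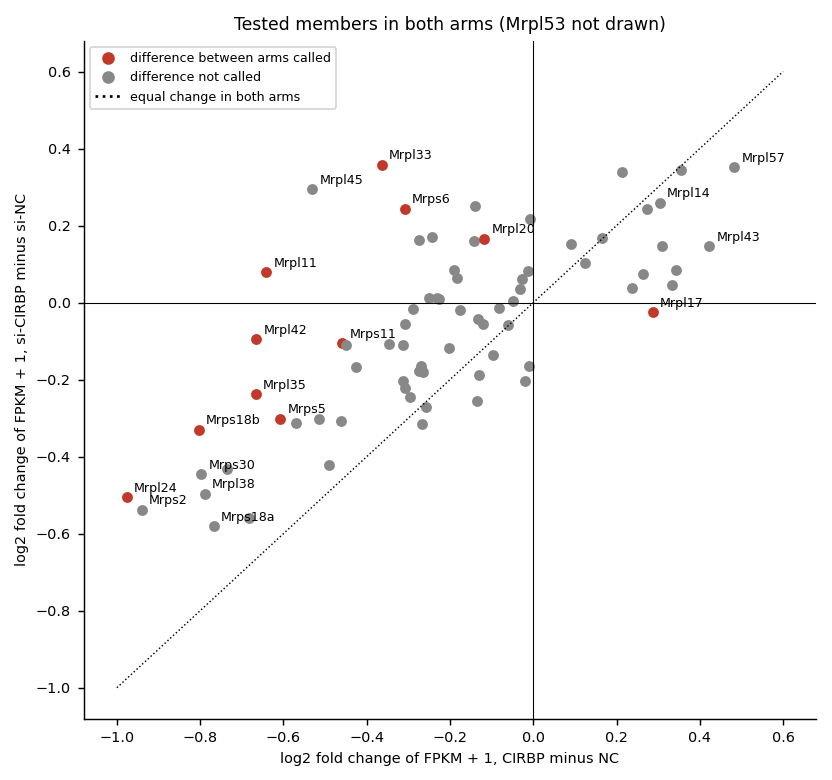
Log2 fold change of FPKM + 1 of each tested gene in CIRBP minus NC (horizontal) and in si-CIRBP minus si-NC (vertical), with equal change on the dotted line; Mrpl53 lies outside the axes. Red points are the 11 of 76 genes for which the difference between the arms was called, 10 of them with the more negative value in CIRBP minus NC. Over all genes tested 17.8% were called for this difference, 10.9% negative.

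The difference between the arms, tested as the change in CIRBP against NC minus that in si-CIRBP against si-NC, was called in 11 of the 76 genes, 10 negative and 1 positive. Over all genes 10.9% were called negative and 6.87% positive, 17.8% in all. Mrpl11 stood at 20.5, 17.6 and 20.1 FPKM in CIRBP and 29.8, 29.8 and 32.8 FPKM in NC, and at 27.7, 33.6 and 38.4 FPKM in si-CIRBP and 30.6, 30.4 and 32.5 FPKM in si-NC. It was clearly lower in CIRBP, while the si-CIRBP and si-NC values overlapped, and the difference was −0.72 (SE 0.146, limma adjusted p = 0.00795). Mrpl42, a mitochondria-specific protein of the large subunit, stood at 24.7, 21.6 and 22.5 FPKM in CIRBP and 37.5, 34.9 and 38.5 FPKM in NC, and at 37.9, 39.4 and 41.6 FPKM in si-CIRBP and 43.9, 45.5 and 38.0 FPKM in si-NC. Again the fall was without overlap in CIRBP and the other groups overlapped (log2 difference −0.57, SE 0.108, limma adjusted p = 0.0059). These 2 calls, of the 6 named for the difference, held under every alternative tried.

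Of the other differences that of Mrpl24, at −0.47 (limma adjusted p = 0.0115), held under every alternative as well, while most were less stable. For Mrpl33 the difference was −0.72 (SE 0.215, limma adjusted p = 0.0415), with CIRBP at 115 to 122 FPKM below NC at 153.7 to 154.1 FPKM and with si-NC library 2, at 94.7 FPKM, apart from the other si-NC libraries at 150.2 and 155 FPKM. Mrps6 gave −0.55 (SE 0.137, limma adjusted p = 0.0198) and Mrps18b −0.47 (SE 0.12, limma adjusted p = 0.0217). The only positive difference was that of Mrpl17 (log2 difference 0.31, SE 0.0804, limma adjusted p = 0.0232), which stood at 92.2, 93.3 and 90.9 FPKM in CIRBP, 74.6, 72.7 and 78.7 in NC, 96.8, 83.0 and 89.2 in si-CIRBP and 89.1, 93.4 and 90.9 in si-NC. NC was the low group there, and the other groups overlapped.

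The control groups themselves differed. Of the 76 genes, 13 were lower and 5 higher in si-NC than in NC, against 21.9% and 12.5% of all genes, 34.4% in all, and the median was −0.06 against −0.07 over all genes. Under either scaling 11 were lower and 12 higher. Of all 14257 genes, 2493 were then lower and 2149 higher with 1 median, and 2526 and 2175 by median ratios. The shares of the family were close to these. Leaving out 1 library gave 9 to 27 calls, 9 without NC library 3, 10 without NC library 2 and 27 without si-CIRBP library 1. Counts of all genes without 1 library are not given here. Mrpl45, which tethers the ribosome to the inner membrane near the tunnel exit, stood at 29.4, 24.1 and 27.5 FPKM in si-NC, against 41.9, 41.1 and 44.1 FPKM in NC (log2 fold change −0.64, SE 0.186, limma adjusted p = 0.0239). In si-CIRBP its library 1 stood apart, at 49.6 FPKM beside 27.2 and 27.1 FPKM. Mrps6 averaged 83.8 ± 5.75 FPKM in si-NC and 113 ± 9.58 FPKM in NC (log2 fold change −0.42, SE 0.0968, limma adjusted p = 0.0084), and Mrpl9, the counterpart of bacterial L9, averaged 20.0 ± 2.32 FPKM in si-NC and 26.5 ± 1.74 FPKM in NC (log2 fold change −0.40, SE 0.0967, limma adjusted p = 0.011). On the other side, Mrpl41 stood at 31.3, 45.9 and 34.5 FPKM in si-NC, against 25, 26.2 and 25.8 FPKM in NC (log2 fold change 0.50, SE 0.114, limma adjusted p = 0.00812), and Mrpl54 stood at 61.6, 78.7 and 69.8 FPKM in si-NC, against 49, 46.7 and 54.3 FPKM in NC (log2 fold change 0.47, SE 0.0881, limma adjusted p = 0.0032). Both were higher in si-NC without overlap. Mrps12, a protein of the decoding centre, averaged 38.1 ± 0.171 FPKM in si-NC and 31.1 ± 0.404 FPKM in NC (log2 fold change 0.29, SE 0.0936, limma adjusted p = 0.0362), a call lost in 8 alternatives, among them the omission of any 1 of the 6 libraries compared. The call of Mrpl45 was lost in 5, when any NC library or si-NC library 2 or 3 was left out. Muscle markers differed between these groups as well, with 4 of 7 tested higher in si-NC, and their part in these differences was not tested.

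**Figure D4:**
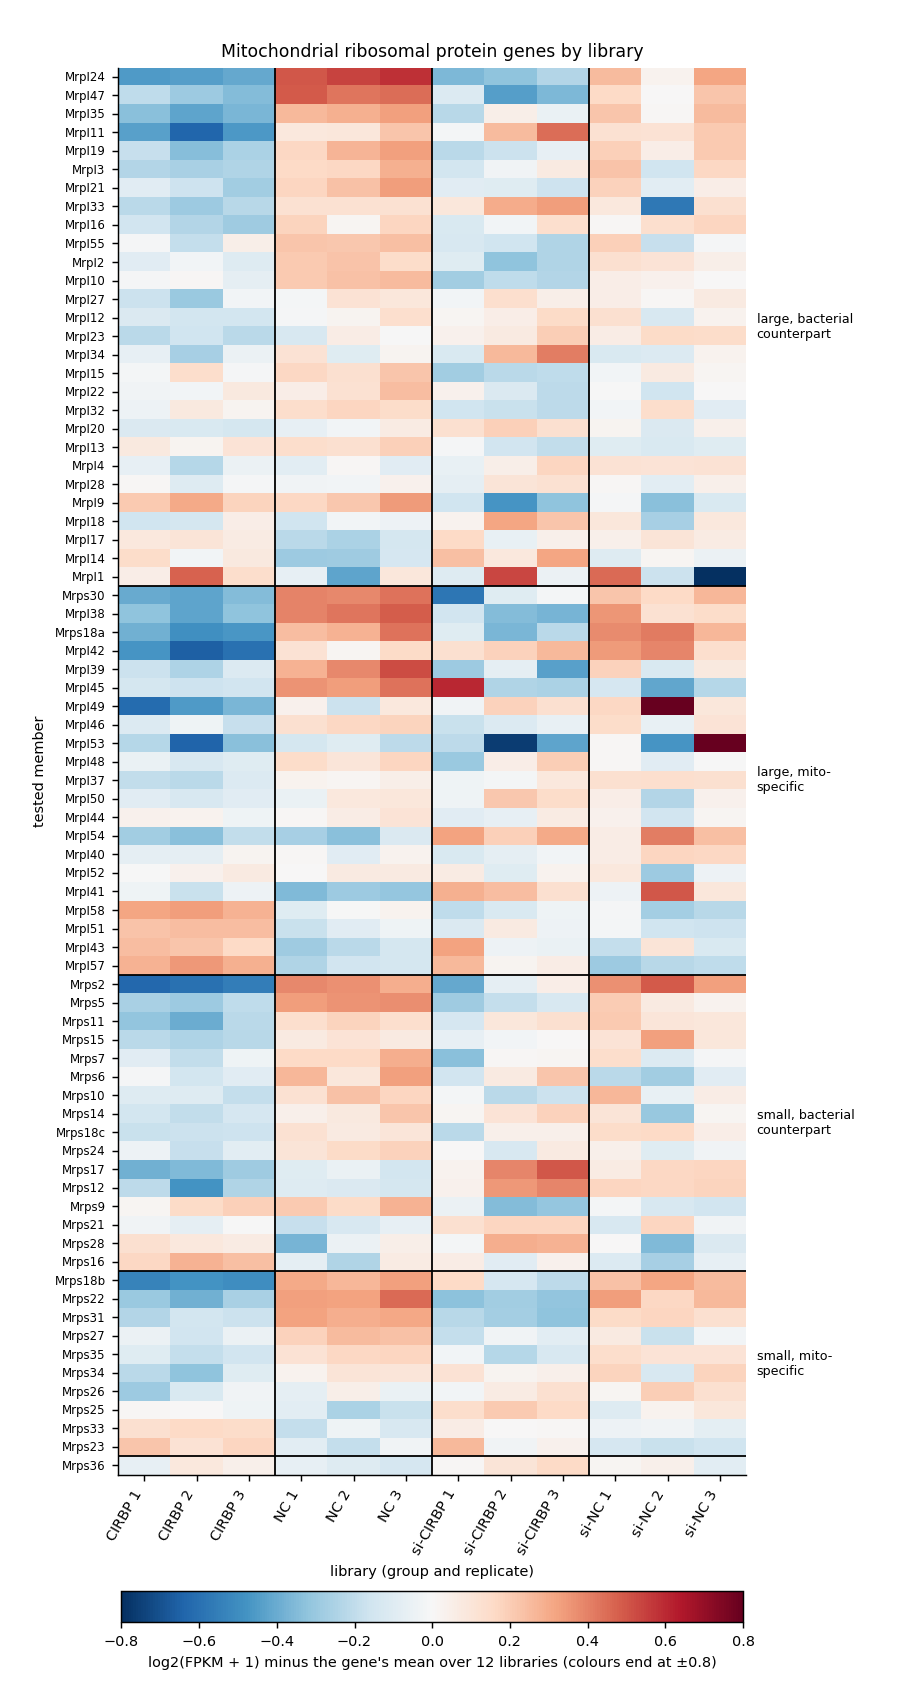
Level of each tested gene (down the page) in each library (across), as log2(FPKM + 1) minus the mean of the gene over the 12 libraries, with colours ending at ±0.8. The 3 CIRBP libraries are alike and hold most of the low values of the 38 genes lower than in NC, and the si-CIRBP and si-NC libraries vary more within their group.

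Other components of mitochondrial translation were read beside the family. The shares to read these counts against are 34.2% lower and 19.7% higher over all genes in CIRBP against NC. Among 5 ribosomal proteins with other symbols, 3 fell and 1 rose in that comparison, and with 1 median 1 fell and by median ratios 2. Ptcd3, a small-subunit protein with pentatricopeptide repeats, averaged 15.2 ± 0.212 FPKM in CIRBP and 26.0 ± 0.711 FPKM in NC (log2 fold change −0.74, SE 0.0499, limma adjusted p = 9.11e-07), while Aurkaip1 averaged 62.8 ± 1.79 FPKM in CIRBP and 42.4 ± 0.365 FPKM in NC (log2 fold change 0.56, SE 0.125, limma adjusted p = 0.00318) and Dap3 24.5 ± 1.65 FPKM in CIRBP and 30.8 ± 1.36 FPKM in NC (log2 fold change −0.32, SE 0.0862, limma adjusted p = 0.00868), the call of Dap3 being lost with 1 median. Of 28 assembly factors, 15 fell and 2 rose, and under either scaling 10 fell and 2 rose. Mrm1, which methylates the large ribosomal RNA, averaged 4.78 ± 0.213 FPKM in CIRBP and 13.1 ± 0.347 FPKM in NC (log2 fold change −1.29, SE 0.0909, limma adjusted p = 1.25e-06), and Fastkd2, an RNA-binding protein needed for the large subunit, averaged 3.26 ± 0.0554 FPKM in CIRBP and 7.82 ± 0.435 FPKM in NC (log2 fold change −1.05, SE 0.109, limma adjusted p = 1.76e-05). Malsu1, which holds the immature large subunit apart from the small one, averaged 23.4 ± 0.83 FPKM in CIRBP and 15.5 ± 0.219 FPKM in NC (log2 fold change 0.57, SE 0.0796, limma adjusted p = 0.000148), so it and its docking protein Mrpl14 were both higher in CIRBP. The change of Malsu1 differed between the arms (log2 difference 0.52, SE 0.113, limma adjusted p = 0.0110), whereas Mrpl14 was called higher in both.

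Of 11 translation factors, 6 fell and none rose, while 5 fell with 1 median, 6 fell by median ratios and 1 rose under each. The genes that fell included Guf1, a GTPase related to bacterial LepA, at −0.81 (SE 0.0873, limma adjusted p = 2.21e-05), the recycling factor Mrrf at −0.43 (SE 0.06, limma adjusted p = 0.000138) and the release factor Mtrf1 at −0.55 (SE 0.0835, limma adjusted p = 0.000262). Of 12 genes for the synthesis and upkeep of mitochondrial DNA and RNA, 10 fell and none rose, and 7 fell under either scaling, with 1 higher after scaling to 1 median. Among these were the mitochondrial RNA polymerase Polrmt (log2 fold change −0.67, SE 0.0563, limma adjusted p = 4.05e-06), its elongation factor Tefm (log2 fold change −1.15, SE 0.106, limma adjusted p = 7.27e-06) and its initiation factor Tfb2m (log2 fold change −0.82, SE 0.113, limma adjusted p = 0.000131). The 13 mitochondrially encoded genes went the other way, with 5 higher and none lower, 8 higher with 1 median and 7 by median ratios. Mt-nd1, a complex I subunit, averaged 3152 ± 155 FPKM in CIRBP and 1761 ± 32.2 FPKM in NC (log2 fold change 0.84, SE 0.281, limma adjusted p = 0.0265), and Mt-co2, a complex IV subunit, averaged 6097 ± 164 FPKM in CIRBP and 3910 ± 138 FPKM in NC (log2 fold change 0.64, SE 0.189, limma adjusted p = 0.0144). These 13 genes took 7.82% to 8.29% of all FPKM in CIRBP and 5.89% to 6.06% in NC, and the part of this share in the fall of the ribosomal genes was not tested.

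Regulators of these genes were also among those that changed. Of 8 tested, 5 fell in CIRBP against NC and none rose (4 lower and 1 higher under either scaling), with Myc at −1.33 (SE 0.0848, limma adjusted p = 6.48e-07), Yy1 at −0.73 (SE 0.0742, limma adjusted p = 1.54e-05) and the coactivator Pprc1 at −0.94 (SE 0.124, limma adjusted p = 9.24e-05). Yy1 averaged 42.1 ± 1.04 FPKM in CIRBP and 70.2 ± 2.56 FPKM in NC. Nrf1 at 0.11 (SE 0.0763, limma adjusted p = 0.268) and Gabpa at −0.07 (SE 0.0823, limma adjusted p = 0.487) did not pass the test, but Nrf1 was called higher under both scalings (log2 fold change 0.25 with 1 median and 0.22 by median ratios). Gabpb1, for the beta subunit of GABP, fell (log2 fold change −0.62, limma adjusted p = 0.000318), also under both scalings (−0.48 and −0.50). It was not called in si-CIRBP against si-NC (−0.17, limma adjusted p = 0.214), and the difference between the arms was called (−0.44, SE 0.137, limma adjusted p = 0.0480). In si-CIRBP against si-NC, 3 of the 8 fell, again Myc (log2 fold change −1.46, SE 0.0848, limma adjusted p = 2.01e-06), Yy1 (log2 fold change −0.55, SE 0.0742, limma adjusted p = 0.000471) and Pprc1 (log2 fold change −0.80, SE 0.124, limma adjusted p = 0.00101). In that comparison 9 of 28 assembly factors, 6 of 11 translation factors and 6 of 12 genes of mitochondrial DNA and RNA upkeep fell and none rose, beside 20.5% lower and 9.08% higher over all genes, and none of the 13 mitochondrially encoded genes was called. With 1 median these counts were 5, 4 and 4 lower and by median ratios 7, 5 and 4, with 1 upkeep gene higher under each.

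Cytosolic ribosomal proteins gave other counts. Of 72 tested Rpl and Rps genes, 24 rose and 4 fell in CIRBP against NC, with a median of 0.14, beside 19.7% of all genes higher and 34.2% lower. In si-CIRBP against si-NC 14 rose and 1 fell, with a median of 0.11, beside 9.08% higher and 20.5% lower. With 1 median and by median ratios, 36 and 34 rose in CIRBP (medians 0.28 and 0.26) and 26 and 22 in si-CIRBP (medians 0.23 and 0.19). In si-NC against NC, 16 of the 72 rose and none fell, beside 12.5% of all genes higher and 21.9% lower. There, 25 rose with 1 median and 26 by median ratios, beside 2149 and 2175 of all 14257 genes. Cytosolic ribosomal transcripts took 5.37% ± 0.0766 of all FPKM in CIRBP and 5.18% ± 0.182 in NC. The difference between these lists was not tested.

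**Figure D5:**
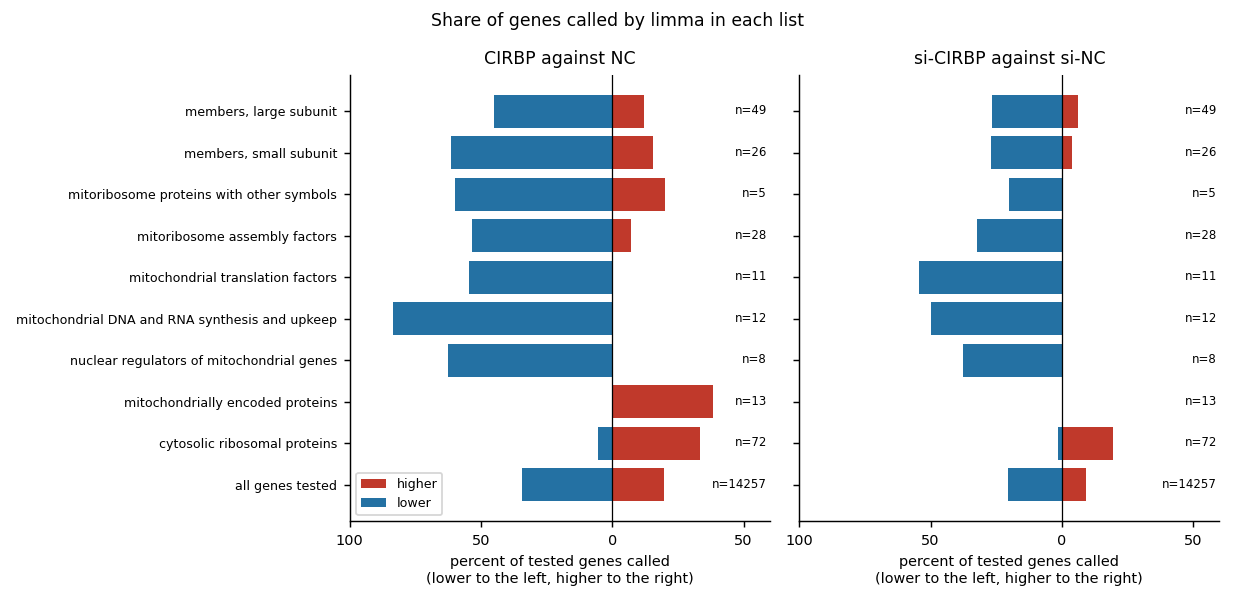
Percent of tested genes called lower (to the left) and higher (to the right) by limma in each list, in both arms. In CIRBP against NC 44.9% of the large-subunit and 61.5% of the small-subunit genes were lower, beside 34.2% of all genes. The assembly factors and the genes of mitochondrial DNA and RNA upkeep were at 53.6% and 83.3% lower. The cytosolic ribosomal proteins lie to the right, at 33.3% higher, beside 19.7% of all genes. The shares are unscaled, and fewer genes of these 4 mitochondrial lists, as of all genes, were lower under both scalings.

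In 23 of the 78 genes the annotation holds 1 or more copies of the gene, mostly pseudogenes, and how the authors' counting divided shared reads is unknown here. Mrps18b, Mrpl47, Mrps16, Mrpl17, Mrpl42 and Mrpl45 are among these, and their values are uncertain to that extent.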

How the data were processed

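Expression had been deposited as FPKM per gene and library, computed by the authors, per the file headers. The tools Cufflinks 2.2.1 and Bowtie2 2.3.3.1 appear, per the submitters' processing notes, beside 2 mouse builds (mm10, GRCm38), and the gene identifiers are rat Ensembl ones, so no coordinates are given from the table. The strand setting and the division of reads between close copies are not stated. FPKM hold no absolute depth, so no counting interval was computed, and relative depth was read from the modal ratio of values under 0.3 FPKM (tolerance 0.15%).

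The deposited FPKM were turned into log2(FPKM + 1), a scale that understates changes of low values, and fitted with limma 3.58.1 (eBayes with trend, R 4.3.3) with 1 coefficient for each of the 4 groups over all 12 libraries. The fit used 14257 of 18344 genes, those with at least 1 FPKM in 3 libraries, and had 8 residual and 2.53 prior degrees of freedom. Tests were two-sided, adjusted (Benjamini-Hochberg) over the 14257 genes and called at an adjusted p under 0.05. The fit was tested on simulated data whose changes were larger than any called in this family. That test does not show how well changes of the reported size are found. Libraries were grouped by their titles. Replicate numbers, which the labels do not describe as a pairing, were not used as a block. Deviations of same-numbered libraries were at most weakly correlated (−0.09 to 0.10). Between CIRBP and NC these correlations were 0.048 to 0.10, while those of differently numbered libraries were −0.083 to −0.008.

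Named genes were the up to 8 largest called changes per direction and arm without overlap between groups, up to 5 in the other contrasts, the most and least abundant members, paralogues and members with roles apart from the ribosome, and up to 3 called genes of each other list. Further genes were named with their values in view. The members, lists and motifs were chosen with earlier results of these data known. The longer NRF1 and YY1 motifs were searched before the shorter ones. Alternatives were another pseudocount (0.1), no filter, a filter of 5 FPKM, both scalings, 6 libraries only, no trend, a variance factor per group, the block and leaving out each library. Leaving out library 1 of si-NC and of si-CIRBP together, and symbols with a capital M only, were added after seeing the data.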

Additional observations from a re-analysis of the deposited data

Results flagged for a closer look

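The change in CIRBP against NC differed from that in si-CIRBP against si-NC in 11 of the 76 tested genes of the mitochondrial ribosome. Each was called by limma's test of the difference itself (adjusted p under 0.05 over all genes tested). Over all genes tested 17.8% were called, 10.9% negative and 6.87% positive, so calls in all were no more frequent in the family. The log2 difference was −0.72 in Mrpl33 (limma adjusted p = 0.0415), −0.72 in Mrpl11 (0.00795), −0.57 in Mrpl42 (0.0059) and −0.55 in Mrps6 (0.0198). It was −0.47 in Mrps18b (0.0217), −0.47 in Mrpl24 (0.0115), −0.43 in Mrpl35 (0.0271) and −0.35 in Mrps11 (0.0419). Smaller differences were those of Mrps5 at −0.31 (0.0323) and Mrpl20 at −0.28 (0.0266), and the only positive one was Mrpl17 at 0.31 (0.0232). Of the 10 negative differences, 3 held under every alternative tried (Mrpl11, Mrpl24 and Mrpl42), and that of Mrpl17 did not. Within the arms Mrpl24, Mrps18b, Mrpl35 and Mrps5 were lower in both, with the larger decrease in CIRBP, whereas Mrpl20 was higher in si-CIRBP (0.17) and not called in CIRBP (−0.12).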

How the results depend on the processing

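In CIRBP against NC all 16 genes named by the rule kept their call under every alternative, and 9 of 10 increases and 20 of 38 decreases did so. The decreases numbered 20 after scaling to 1 median and 23 by median ratios, with medians of −0.0909 and −0.11, and 30 to 42 when 1 library was left out. In si-CIRBP against si-NC, 5 genes (0 higher, 5 lower) were called in the 6 libraries alone and 12 (1 higher, 11 lower) with a variance factor per group. There, 20 rose and 12 fell with 1 median (median 0.0663), 10 rose and 13 fell by median ratios (median 0.0235), and leaving out 1 library gave 2 higher (without si-CIRBP library 3) to 8 (without si-CIRBP library 1). The difference between the arms had 4 positive and 11 negative calls under either scaling. Of all 14257 genes, 1192 were then positive and 1458 negative with 1 median, and 1310 and 1376 by median ratios. Leaving out 1 library gave 4 to 27 calls, 0 to 3 positive and 3 to 24 negative. There were 27 without si-CIRBP library 1, 18 without si-NC library 1, 6 without NC library 2 and 4 without CIRBP library 1 or 2 or NC library 1 or 3. For fits that leave out libraries, counts of all genes are not given here, so the family cannot be set against them. In si-NC against NC, 12 rose and 11 fell under either scaling, beside the counts of all genes given above, and 3 rose with a variance factor per group. There, leaving out 1 library gave 9 to 27 calls, 3 to 8 higher and 6 to 19 lower, with 9 without NC library 3 and 10 without NC library 2. Without library 1 of both si-NC and si-CIRBP, chosen after seeing the data, 14 rose in si-CIRBP against si-NC, the difference had 31 calls (4 positive, 27 negative) and si-NC against NC had 36 (11 higher, 25 lower). The cause was not tested. With the replicate number as a block, which the labels do not describe as a pairing, 3 genes rose in si-NC against NC, and the counts in CIRBP against NC were 9 higher and 39 lower. No result changed direction for a named gene. Absolute depth is unknown, so the counting error of low members such as Mrpl53 and Mrpl1 cannot be given.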

Other observations

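Single libraries lay apart in a few genes of the family, by over 1.5 times from the nearest of their group at levels of 5 FPKM or more. Mrpl33 at si-NC library 2 is given above. Mrpl53, which stood at 0.470 to 1.5 FPKM in 11 libraries, was at 27.1 FPKM in si-NC library 3. Its log2 fold change of −1.47 in si-CIRBP against si-NC did not pass the test (limma adjusted p = 0.189). Mrpl49 was at 16.5 FPKM in si-NC library 2, beside 9.15 and 8.65 FPKM in the other si-NC libraries. Mrpl45 was at 49.6 FPKM in si-CIRBP library 1, beside 27.2 and 27.1 FPKM, and Mrpl36 was at 7.11 FPKM in si-CIRBP library 3, beside 0.587 and 0.461 FPKM. At lower levels other groups held such libraries too, for example Mrpl53 at 0.596 FPKM in CIRBP library 2, beside 0.972 and 1.1 FPKM. Over all members, the median SD of a gene on the log2 scale was 0.107 in si-CIRBP and 0.0922 in si-NC, and 0.0556 in CIRBP and 0.0586 in NC.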
